A study of Parasteatoda tepidariorum with 16 samples.

Results

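*g14287* and *g16467* are 2 of the 27990 AUGUSTUS gene models counted in cells of the spider *Parasteatoda tepidariorum*. They are annotated as twist-related protein 2-like and homeobox protein orthopedia-like. Both belong to the 10 genes (Group C) of a pilot RNAi screen, which were selected on high counts in stage-3 cells from the center of the germ disc and almost none in cells from elsewhere. The pair was further chosen by its lower level in central cells of later stages. Those differences are therefore given below as values, without a test.

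Small cell populations were drawn with glass capillaries from wild-type embryos of the Osaka isolate and their poly(A) RNA was sequenced. There were 16 libraries in 7 groups. At stage 3, about 20 h after egg laying (AEL), they came from the central region (c cells, n = 2), the intermediate region (i cells, n = 3) and the peripheral region (p cells, n = 3) of the forming germ disc. At stage 4 (28 to 29 h AEL) and at early stage 5 (31 to 32 h AEL), c cells and p cells had 2 libraries each. The labels put 10 to 100 cells in a library and name 4 mothers. Stage-3 c and p cells shared a mother, i cells had another, and each later stage had its own, so that stage and mother cannot be told apart. Nor can region and mother be told apart where i cells are set against c or p cells.

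Twist is a transcription factor of the basic helix-loop-helix (bHLH) class. In *Drosophila* it is required to form the mesoderm, where it acts with the zinc finger factor Snail, and in vertebrates Twist factors take part in the transition of epithelial cells to a migratory state. Orthopedia is a homeobox factor of the paired class. It is known from the mouse for the differentiation of neuroendocrine cells in the hypothalamus, and its *Drosophila* counterpart is expressed in the hindgut and the nervous system. In the spider, the germ disc gives rise to the body of the embryo, and the cells at its center lie at the embryonic pole, where cells later move inside. A *twist* gene of this spider serves as a marker of mesoderm at later stages. The paper's in situ hybridization of whole stage-3 embryos showed *g14287* and *g16467* at the embryonic pole. Neither is among the genes that its RNAi screen reported as required for forming the germ disc or the axis.

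The 2 genes lie on different scaffolds of the genome assembly Ptep_1.0. *g14287* spans 10209 bp on the minus strand of scaffold 1837, from 234376 to 244584, and *g16467* spans 87018 bp on the minus strand of scaffold 2238, from 107277 to 194294. From counts, library totals and the deposited RPKM, the counted part of the models comes out at 1563 to 1594 bases for *g14287* and 908 to 926 bases for *g16467*, so that most of either span is not counted as exon. A table of RefSeq gene names for the assembly CAS_Ptep_4.0 gives *twi* as a synonym of the *g14287* locus and none for that of *g16467*. A second gene model annotated as twist-related, *g14166*, had 0 counts in all 16 libraries.

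The sequences at hand for *g16467* are the primers with which a cDNA fragment of it was cloned for the screen. They are shown because they define the fragment that was cloned under this name. Capitals mark the EcoRI site added for cloning, and the 22 bases after it form the gene-specific part.

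*g16467* forward: gGAATTCccctagccttttctcttctagg
*g16467* reverse: gGAATTCaagttgctgtagttggcaatgt

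The total count on genes was 4566853 to 10500376 per library. Levels are counts scaled to an equal library size (CPM), by edgeR's TMM method over the 16 libraries. A count of 0 allows up to 3 counts, which is 0.255 to 0.774 CPM depending on the library. Such limits, and the intervals below, hold for counting error alone, as reads copied by PCR were not collapsed to molecules. Of the regional markers, *g4238* (*Pt-Ets4*), an Ets factor of the embryonic pole and a Group C gene itself, had 948 and 1727 CPM in stage-3 c cells, 0 in all 3 libraries of i cells and at most 0.595 CPM in p cells. *Pt-opa* (*g12202*), a zinc finger gene named as a marker of the later periphery, did not separate the regions at stage 3, with 269 and 387 CPM in c cells, 284 to 411 CPM in i cells and 89.4 to 333 CPM in p cells. At stage 4 it had 54.4 and 48.6 CPM in c cells, against 321 and 225 CPM in p cells.

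*g14287* was read in c cells at every stage and was close to 0 elsewhere. At stage 3 the c libraries had 2396 and 5276 counts, which is 206 and 562 CPM, against 0 counts in all 3 libraries of i cells and 1, 0 and 0 counts in p cells. The second c library was thus 2.73 times the first, and every c library lay far above all others. The mean of 384 ± 252 CPM (SD, n = 2) was at least 3073-fold higher than in i cells, with a floor of 3 counts over the group, and 12777 times the level over the pooled p libraries (95% counting interval 2293 to 504650, from 1 count).

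At stage 4 the c libraries held 883 and 27 counts of *g14287*, which is 131 and 3.26 CPM, against 0 counts in both p libraries. Their mean was 67.0 ± 90.2 CPM (SD, n = 2), at least 311-fold higher than in p cells. The 2 libraries thus differed 40.1-fold in a gene that both contained. In early stage-5 embryos *g14287* had 17 and 29 counts in c cells, which is 4.39 and 6.95 CPM (mean 5.67 ± 1.81, SD, n = 2), against 0 counts in both p libraries, at least 18.7-fold higher.

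*g16467* showed the same division of the libraries. At stage 3 it had 985 and 1887 counts in c cells, which is 84.8 and 201 CPM, and 0 counts in all 6 libraries of i and p cells. The mean of 143 ± 82.2 CPM (SD, n = 2) was at least 1143-fold higher than in i cells and at least 1584-fold higher than in p cells. As for *g14287*, the second c library was the higher one, here 2.37 times the first.

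In later c cells *g16467* varied less between replicates than *g14287*. At stage 4 it had 506 and 312 counts in c cells, which is 75 and 37.7 CPM (mean 56.3 ± 26.4, SD, n = 2), against 1 and 0 counts in p cells, a ratio of 785 to the level over the pooled p libraries (95% counting interval 141 to 30990). In early stage-5 embryos it had 47 and 51 counts in c cells, which is 12.1 and 12.2 CPM (mean 12.2 ± 0.0668, SD, n = 2), against 0 counts in both p libraries, at least 40.2-fold higher. An SD this small over 2 libraries lies below the counting error of 47 and 51 counts. By these values all 6 c libraries lay above all 10 others for both genes, with at least 17 counts of *g14287* and 47 of *g16467* in a c library.

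**Figure D1:**
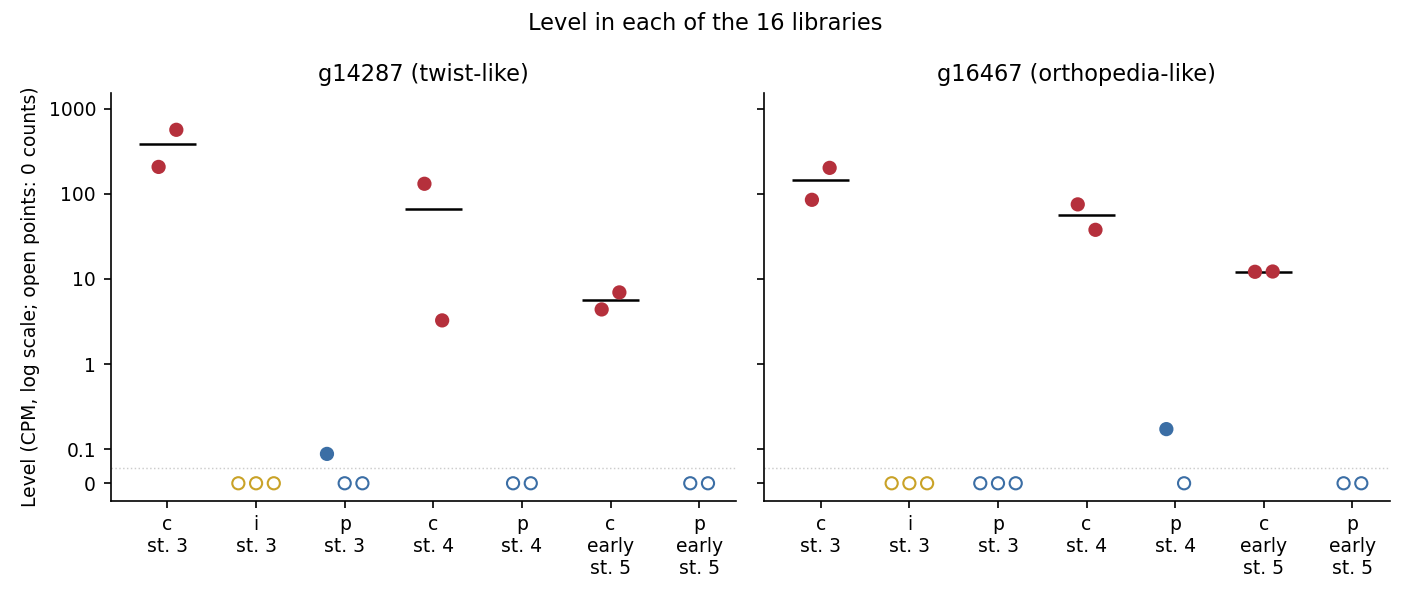
Level (CPM, log scale) of *g14287* (left) and *g16467* (right) in each of the 16 libraries, by cells (c, i, p) and stage; filled points are libraries with counts, open points on the line marked 0 are libraries with 0 counts, and black lines are means of 2 c libraries. The c libraries of *g14287* lie between 3.26 and 562 CPM and those of *g16467* between 12.1 and 201 CPM, and outside c cells 1 library has 1 count of each gene.

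A split of this kind over the 16 libraries was uncommon. Among all gene models, 3578 had at least 10 counts in all 6 c libraries, and 7 of these had at most 1 count in every library of i and p cells. Besides *g14287* and *g16467* these were the uncharacterized Group C genes *g132* and *g17735*, *g22384* (putative RING-H2 finger protein), *g7615* (annotated as a mitochondrial carrier of solute carrier family 25) and *g887*, which has no product name. The stage-3 part of the split was used to choose both genes, and nothing is read from their place among the 7, of which the others are named because they meet the same limits.

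The split was also set beside other transcription factor genes, in lists drawn from the product names. Of 54 bHLH genes, 29 reached 1 CPM in a library. Of these, 9 had counts in every c library, 6 had at most 1 count in every i and p library, and *g14287* met both limits. Of 40 paired-class homeobox and Pax genes, 18 reached 1 CPM. Among them 8 had at most 1 count in every i and p library, whereas *g16467* was the one with counts in every c library. Of the 105 other homeobox genes, 57 reached 1 CPM, 14 had counts in every c library, 19 had at most 1 count in every i and p library, and 0 met both limits. The bHLH genes that had at least 10 CPM in every c library included *g6382* and *g4534*, which are annotated as transcription factor 12, the class of widely expressed partner with which Twist forms dimers. *g6382*, the bHLH gene with the highest mean, was read in all regions, with 139 to 406 CPM in c cells and 45 to 436 CPM in i and p cells.

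**Figure D2:**
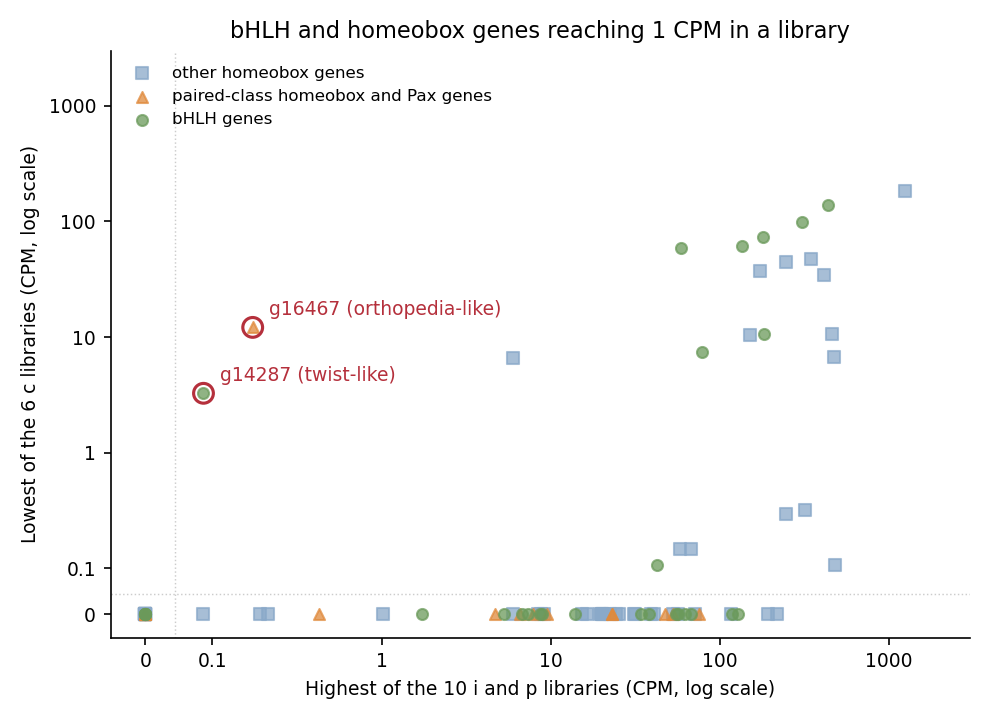
Lowest level among the 6 c libraries (vertical) against highest level among the 10 libraries of i and p cells (horizontal), both in CPM on log scales with 0 drawn on the lines marked 0, for the bHLH, paired-class or Pax and other homeobox genes that reached 1 CPM in a library. *g14287* (3.26 and 0.0885 CPM) and *g16467* (12.1 and 0.173 CPM) are circled. Both were chosen on stage-3 libraries that are included here, so that their place is no result. Most genes lie on the line of 0 CPM in at least 1 c library.

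Replicate libraries differed widely in many genes, which bears on every fold given here. Among all other genes with at least 10 CPM in 1 of the stage-4 c libraries, 23.1% had 0 counts in the other, and 29.7% differed at least as much as *g14287* did or had 0 counts in one of them. For the bHLH, homeobox and Pax genes of the lists these shares were 30.8% and 41.0% of 39 genes. At early stage 5 the share of all genes with 0 counts in the other c library was 3.49%, where both *g14287* and *g16467* had counts in both. At stage 3 it was 24.3%.

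The difference between c and p cells was tested at the later stages, with edgeR's quasi-likelihood test and Benjamini-Hochberg adjustment over all genes of the comparison. The choice of the genes did not use this contrast, although it used the level in the same later c libraries. The p-values of both genes at the later stages are therefore not independent of the choice and are given as description. At stage 4, 49 of 10074 genes (0.486%) had an adjusted p under 0.05, of which 44 (0.437%) were higher and 5 (0.0496%) lower in c cells. Neither *g14287* nor *g16467* was among them. For *g14287* the log2 fold change was 11.81 (standard error, SE, 4.71, adjusted p = 0.595 by edgeR), and for *g16467* it was 9.22 (SE 3.94, adjusted p = 0.76 by edgeR). Both thus had an unadjusted p under 0.05. By DESeq2's Wald test both were called higher in c cells, with an adjusted p of 0.000285 for *g14287* and 0.00169 for *g16467*, and over 8 alternatives the adjusted p ranged from 0.000285 to 0.981 for *g14287* and from 0.00169 to 0.981 for *g16467*. Fitted log2 fold changes of genes with 0 counts in a group depend on the count that edgeR adds, and the SE is the log2 fold change divided by the square root of F.

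At early stage 5, 96 of 11825 genes (0.812%) were called between c and p cells, 91 of them (0.77%) higher and 5 (0.0423%) lower in c cells. Again neither gene was among them in edgeR's test. *g16467* had a log2 fold change of 8.75 ± 3.17 (SE, adjusted p = 0.442 by edgeR), and *g14287* one of 7.66 ± 4.00 (SE, adjusted p = 0.669 by edgeR). Of the 2, *g16467* had an unadjusted p under 0.05. DESeq2 called *g16467*, with an adjusted p of 0.0268, and not *g14287*, with one of 0.283. Over 8 alternatives the adjusted p ranged from 0.0268 to 1 for *g16467* and from 0.268 to 1 for *g14287*. By the same edgeR test the Ets factor *g4238*, with 423 and 403 CPM in c cells and 1.28 and 0.192 CPM in p cells, was called at this stage (log2 fold change 9.09, adjusted p = 0.00113). With any of the 4 libraries left out, 0 or 1 of all genes were called at this stage, and *g4238* was not called, with an adjusted p of up to 0.397 by edgeR.

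Both genes were lower in c cells of each later stage than in those of the stage before, by their means. For *g14287* the mean at stage 4 was 17.4% of that at stage 3 (5.73-fold lower), and at early stage 5 it was 1.47% (67.8-fold lower). The highest later c library (131 CPM) lay below the lowest at stage 3 (206 CPM), whereas the libraries of stage 4 and early stage 5 overlapped, since the second stage-4 library (3.26 CPM) was the lowest of all 6. For *g16467* the mean at stage 4 was 39.4% of that at stage 3 (2.54-fold lower), and at early stage 5 it was 8.51% (11.7-fold lower). Its libraries did not overlap between any of the 3 stages, although the gap between stages 3 and 4 was narrow, with 75 CPM in the highest stage-4 library and 84.8 CPM in the lowest at stage 3. The share of all genes without overlap between stages was not taken, so that nothing about either gene is read from this. In samples of small cell populations, fewer cells of a type and less RNA per cell cannot be told apart.

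Between the later stages the choice of the pair used the level in the same c libraries, so that this difference too is given as values, without a test. In edgeR's fit of all 16 libraries the log2 fold change in c cells of early stage 5 against stage 4 was -3.45 for *g14287* and -2.18 for *g16467*. For *g14287* 1 library decided the direction, since without the first stage-4 c library the log2 fold change was 0.81. For *g16467* it lay between -2.62 and -1.63 with each library left out in turn. Of all 13511 genes in that fit, 50 (0.37%) were called, 12 of them (0.0888%) higher and 38 (0.281%) lower at early stage 5.

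As a frame for these percentages, of which nothing is read since they chose the genes, the same were taken for other genes. Among 4605 genes with at least 10 CPM in both stage-3 c libraries, the median level in c cells was 74.1% of that at stage 3 for stage 4 and 80.7% for early stage 5. A lower percentage at early stage 5 than that of *g14287* was found for 177 of these genes, and a lower one than that of *g16467* for 327. At stage 4 there were 647 and 1348 such genes. Between stages 4 and 3, 515 of 13511 genes (3.81%) were called in c cells, 305 higher (2.26%) and 210 lower (1.55%) at stage 4, a contrast that was not tested for *g14287* and *g16467*.

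The other Group C genes, which the study chose on the same stage-3 libraries, took several courses after stage 3. The pair was picked from Group C for its lower level after stage 3, so that its difference from the other 8 in this respect is no result. *g4238* had 948 and 1727 CPM in c cells at stage 3, 2270 and 619 CPM at stage 4 and 423 and 403 CPM at early stage 5, and the difference between early stage 5 and stage 4 was called (log2 fold change -1.80, adjusted p = 0.0444 by edgeR), in 10 of 16 fits with a library left out. *g15167*, an EF-hand gene, went the other way, with 13 and 322 CPM at stage 3, 975 and 525 CPM at stage 4 and 440 and 671 CPM at early stage 5 (log2 fold change 2.21 between stages 4 and 3, adjusted p = 0.00438 by edgeR), a call lost without the first c library of either stage. *g20850* had a mean of 301 CPM at stage 4, against 64.1 CPM at stage 3 (log2 fold change 2.25 by edgeR). It was not called (adjusted p = 0.0666 by edgeR and 0.763 by DESeq2's Wald test), with an unadjusted p under 0.05 by edgeR. *g132* had 42.8 and 29.0 CPM at early stage 5 and *g17735* had 42.3 and 91.8 CPM, within the range of their own stage-3 libraries. The stage-3 level of 6 of the 8 rested mainly on the second c library. *g132* had 22.9 CPM in the first and 242 CPM in the second, and *g17735* had 16.1 and 334 CPM. *g5118*, *g16893* (a *ush*-like zinc finger gene) and *g3963* had 0.344, 0.0861 and 13.4 CPM in the first stage-3 c library, against 183, 161 and 125 CPM in the second, and *g15167* is the sixth. The second stage-3 c library was above the first for each of the 10 Group C genes. That library had 5653 genes at 1 CPM or more and the first had 8236, and the part of this in the levels was not tested.

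**Figure D3:**
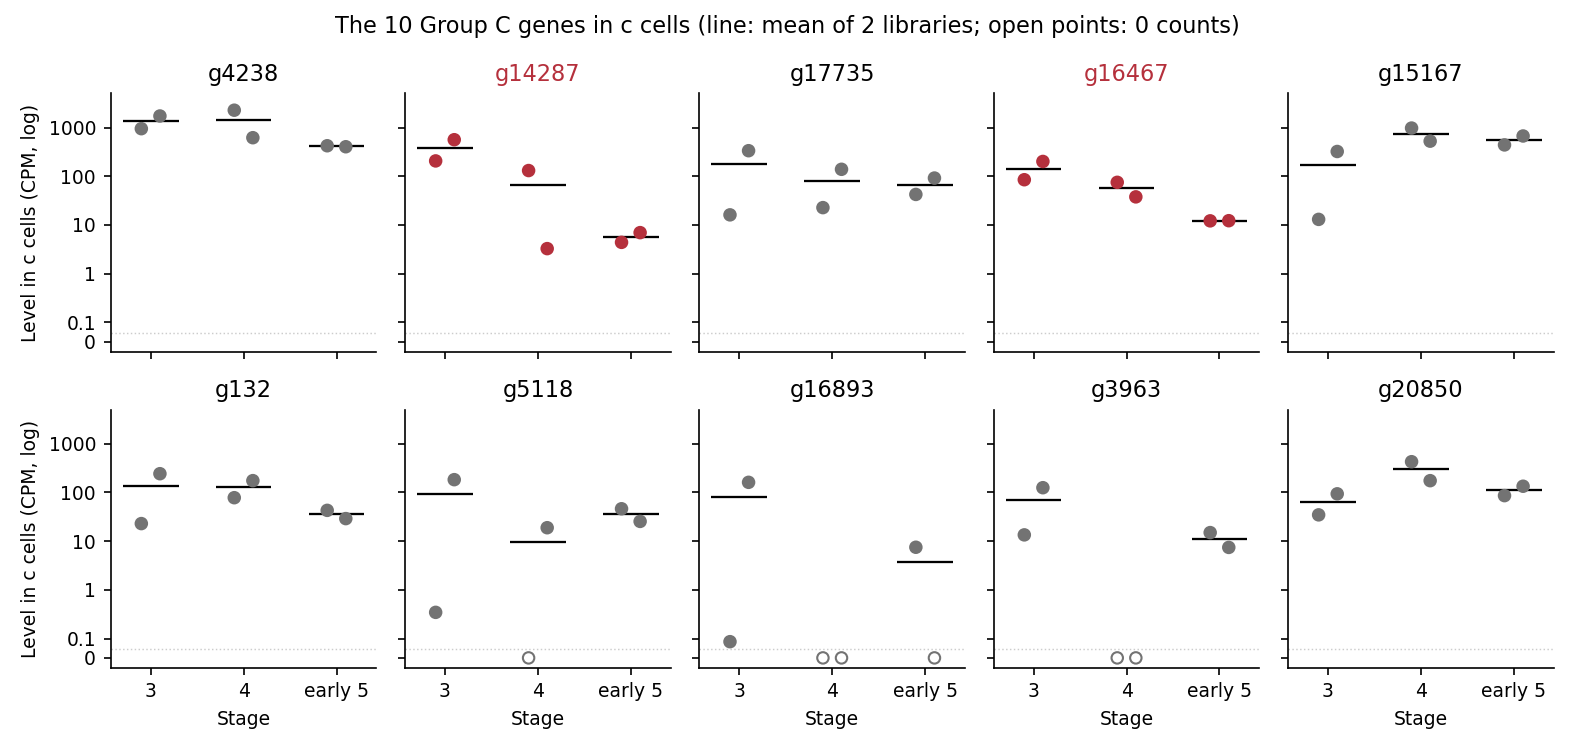
Level in c cells (CPM, log scale) of the 10 Group C genes at stages 3, 4 and early 5; points are the 2 libraries of a stage, lines are their means and open points are libraries with 0 counts. *g14287* and *g16467*, in red, were picked from the 10 for their lower level after stage 3. The second stage-3 library is above the first for all 10 genes.

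Within a library, levels of different genes can be set side by side per length, by the RPKM that the authors deposited. Relative to the RPKM of *g4238* in the same library, *g14287* stood at 42.3% and 63.3% in stage-3 c cells, 11.2% and 1.02% at stage 4 and 2.02% and 3.35% at early stage 5. *g16467* stood at 29.9% and 38.9%, then 11% and 20.4%, then 9.59% and 10.1%. Scaled to this gene of the embryonic pole, both were again lower in all later c libraries than in stage-3 ones. The pair was chosen for its lower level in the same libraries, so that this is no separate result. Relative to *fuchi* (*g26874*), the GATA-like gene of the endoderm, *g14287* stood at 51.4% and 82.1% at stage 3, 18.4% and 0.929% at stage 4 and 1.09% and 1.56% at early stage 5. *g16467* stood at 36.4% and 50.5%, then 18.1% and 18.5%, then 5.20% and 4.72%.

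The relation of the 2 genes to each other also differed between stages. The RPKM of *g14287* was 144 and 389 in stage-3 c cells, against 102 and 239 for *g16467*, a ratio of 1.41 and 1.62. At stage 4 the ratio was 1.01 in the first c library, with 77.3 and 76.3 RPKM, and 0.0503 in the second, with 1.71 and 33.9 RPKM. At early stage 5 it was 0.210 and 0.330, with 2.38 and 3.86 RPKM of *g14287* and 11.3 and 11.7 RPKM of *g16467*. *g14287* was thus the higher of the 2 per length at stage 3 and the lower at early stage 5, and the stage-4 libraries lay on either side of those of early stage 5. Among the genes with reads in a library, *g14287* lay above 92.5% and 96.4% by RPKM at stage 3, 82.4% and 13.5% at stage 4 and 28.7% and 27.9% at early stage 5. *g16467* lay above 89.4% and 93.8%, then 82.2% and 77.3%, then 62.2% and 56.0%.

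**Figure D4:**
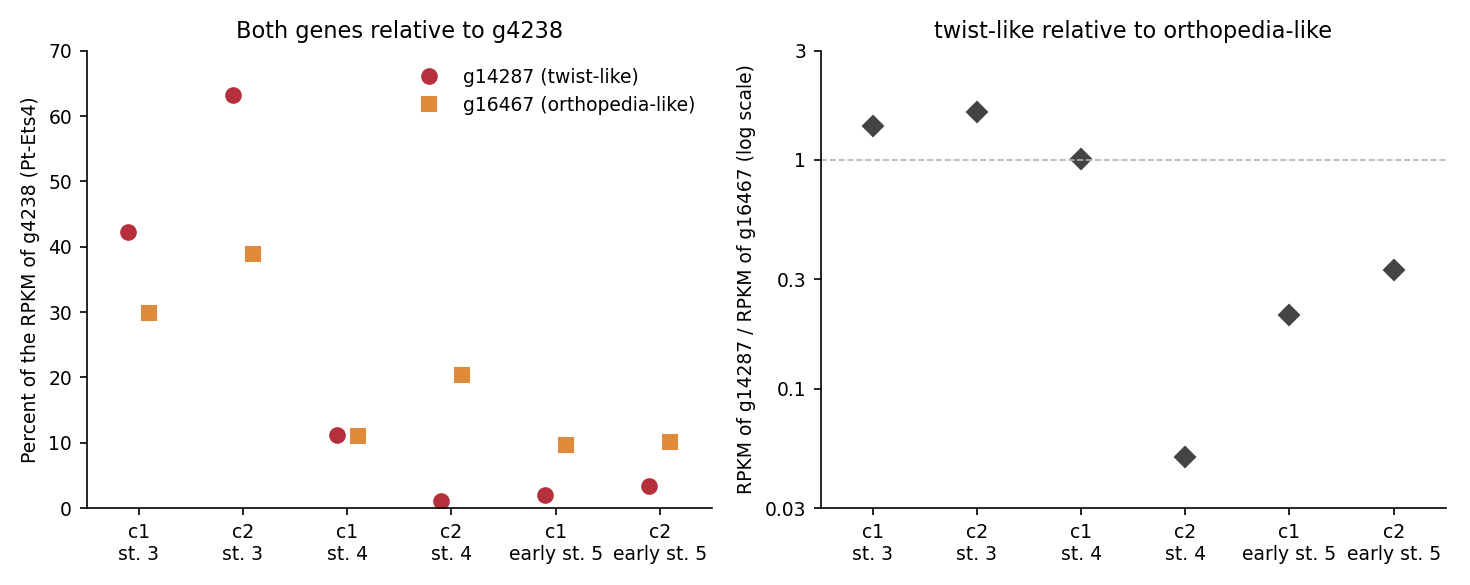
Left: RPKM of *g14287* (circles) and *g16467* (squares) as a percentage of the RPKM of *g4238* in each of the 6 c libraries. Right: ratio of the RPKM of *g14287* to that of *g16467* in the same libraries (log scale, dashed line at 1); it is 1.41 and 1.62 at stage 3, 1.01 and 0.0503 at stage 4, and 0.210 and 0.330 at early stage 5.

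The 2 stage-4 c libraries differed in other pole genes too. The second had 2.49% of the CPM of the first for *g14287*, 50.3% for *g16467* and 27.2% for *g4238*, and *fuchi* had 1605 CPM in the first and 791 in the second. Of the other Group C genes, *g15167* (53.8%) and *g20850* (40.8%) were lower in the second too. Others were higher in it: *g17735* had 22.7 and 139 CPM, *g132* had 77.9 and 175 CPM and *g5118* had 0 and 18.8 CPM. *g16893* and *g3963* had 0 CPM in both. The second library also had 8414 genes at 1 CPM or more, where the first had 5973. *Pt-hh* (*g4322*), a hedgehog gene of the later periphery, was at 0.741 CPM in the first and 0.725 CPM in the second, against 36.3 and 399 CPM in p cells, and *Pt-BarH1* (*g8250*) was at 16.3 and 63.8 CPM, against 26.6 and 142 CPM in p cells. The part of these differences in the level of *g14287* was not tested.

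The genes most like *g14287* and *g16467* over the 16 libraries were found by expressing each gene as a percentage of its highest library and taking the mean absolute difference between profiles, among 6738 genes with at least 50 CPM in a library. For *g14287* the closest was *g14050*, annotated as the homeobox gene engrailed, with a mean difference of 2.21 percentage points. It had 20.9 and 76.9 CPM in stage-3 c cells, 0 counts in all later libraries and at most 0.0885 CPM in i and p cells. The next were *g23536* (a fatty acid elongase, 2.53 points), *g485* (lysosome membrane protein 2, 2.58 points), *g16467* itself (2.99 points) and the uncharacterized *g25903* (3.20 points). For *g16467* the closest were *g485* (2.96 points) and *g14287*, followed by the uncharacterized *g2628* (3.59 points), *g27568* (3.66 points), annotated as shifted-like, and *g15298* (3.80 points), annotated as the homeobox gene prospero. *g14287* thus stood in place 2 of the order for *g16467*, and *g16467* in place 4 of that for *g14287*. All 9 genes named here had their highest level in the second stage-3 c library. The search favours such genes, since *g14287* and *g16467* peak there, so that this is no separate result. The points share 16 libraries, in which a gene at 0 in most of them is alike to any other such gene.

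**Figure D5:**
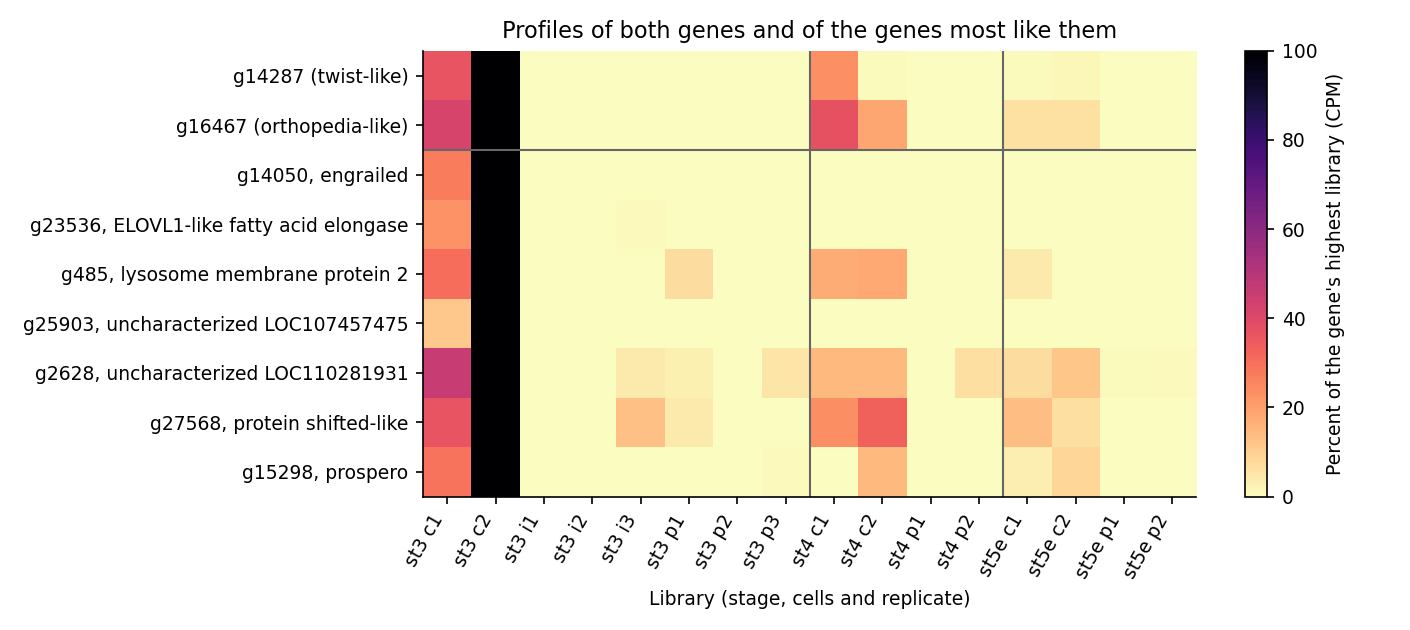
CPM as a percentage of each gene's highest library, for *g14287*, *g16467* and the 7 other genes with the most similar profiles, over the 16 libraries (columns; st3, st4 and st5e are stages 3, 4 and early 5, and vertical lines part the stages). All 9 genes peak in the second stage-3 c library, which the search for likeness to the pair favours. *g16467* keeps colour in all 4 later c libraries.

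None of the gene models next to the 2 genes had counts in all c libraries and almost none elsewhere. Among them, *g14288* was read almost only in c cells, but not in all c libraries. Next to *g14287*, 8620 bp away on the side of lower coordinates, lies *g14286* (elongation factor 1-beta, part of the translation machinery), with 13 to 169 CPM over the 16 libraries. On the other side, 26541 bp away on the same strand, the uncharacterized *g14288* had 102 and 0 counts in stage-3 c cells, 81 and 0 at stage 4 and 9 and 23 at early stage 5, against 1 count in all libraries of i and p cells together. It was thus read in 4 of 6 c libraries, and its difference between c and p cells had an adjusted p of 0.736 to 0.921 by edgeR. Next to *g16467*, *g16466* had 0 counts in all libraries, and *g16468* (arylsulfatase B, 41511 bp away) had 139 and 0 counts in stage-3 c cells, 0 and 25 at early stage 5 and up to 284 in a stage-3 p library.

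Other genes tied to Twist, mesoderm or the transition of epithelial cells in *Drosophila* or vertebrates were taken as a list, by product name. It had 33 genes and held Snail, Mef2, FGF receptor, forkhead, cadherin and singed genes, among others. Whether these genes act with Twist was not tested. Between c and p cells, 0 of 12 tested genes were called at stage 3, where 25 of all 10202 genes (0.245%) were called, all higher in c cells. At stage 4 it was 1 of 15, against 0.486% of all genes, and at early stage 5 it was 0 of 18, against 0.812%. An unadjusted p under 0.05 was found for 0, 2 and 4 of these genes in the 3 stages, and DESeq2 called 4, 2 and 2 of them, among 888, 278 and 411 of all genes. The gene called was *g26989*, annotated as singed, the actin-bundling protein fascin, with 1190 and 641 CPM in c cells at stage 4, against 89.4 and 82.2 CPM in p cells (a log2 fold change of 3.36 with adjusted p = 7.61e-05 by edgeR). This call was lost without the first c library or either p library, and without either p library the calls of all other genes were lost too. Between stages 4 and 3 in c cells, 2 of 20 were called, against 3.81% of all genes, both higher at stage 4, while *g14287* was lower by its values. *g26989* had 76.4 and 155 CPM at stage 3 (log2 fold change 3.00, adjusted p = 7.18e-06 by edgeR). *g26565*, annotated as FGF receptor 4, of the family that guides mesoderm cells in *Drosophila*, had 253 and 141 CPM in c cells at stage 4, against 0 counts at stage 3, at least 1379-fold higher (adjusted p = 0.000184 by edgeR). Both kept this call with each of the 16 libraries left out in turn. Between early stage 5 and stage 4, 0 of 20 were called by edgeR and by DESeq2, against 0.37% of all genes by edgeR, with an unadjusted p under 0.05 for 0 by edgeR and 1 by DESeq2. Over the 5 comparisons the median log2 fold change of the list lay between -0.09 and 0.31, and that of all genes between 0 and 0.19. With genes at 0 counts in a group set to the bound that 3 counts give, the highest list median was 0.24. The member with the highest mean, the neural cadherin *g3700*, an adhesion molecule, had 292 to 753 CPM over the 16 libraries.

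Both Snail genes, *g416* and *g417*, which are named here because of their values, had 0 counts in all 8 libraries of stage 3, where *g14287* was highest in c cells. At stage 4 *g416* had 0.148 and 36.0 CPM in c cells, against 47.7 and 60.1 CPM in p cells, and *g417* had 0 and 10.8 CPM in c cells, against 57.2 and 29.97 CPM in p cells. Later, at early stage 5, *g416* had 12.6 and 0.240 CPM in c cells, against 43.2 and 33.6 CPM in p cells. All p libraries of the later stages thus lay above all c libraries of their stage, and the c libraries differed widely. The share of all genes with such a gap was not taken, so that nothing is read from it. Other genes of the list, such as *g26989* and *g26565*, were higher in c cells at stage 4. None of the differences of the Snail genes between c and p cells was called, by edgeR or by DESeq2. At early stage 5 both Snail genes had an unadjusted p under 0.05 by edgeR.

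In the other families 0 of the 53 further bHLH genes were called by edgeR in any of the 5 comparisons (19 to 28 tested in each). With 0.245% to 3.81% of all genes called in these comparisons, nothing about bHLH genes is read from a count of 0. An unadjusted p under 0.05 was found for 0 to 3 of them in a comparison, and DESeq2 called 1 at early stage 5 and 0 in the other comparisons. Of 39 further paired-class homeobox and Pax genes, edgeR called 1 of 10 tested at early stage 5, against 0.812% of all genes, and 0 in the other 4 comparisons, where 0 to 2 had an unadjusted p under 0.05 and DESeq2 called 0 to 5. The gene called was *g18397* (*Pt-prd2*, annotated as gooseberry, a segmentation gene of the Pax type in *Drosophila*), with 221 and 142 CPM in c cells at early stage 5, against 0.425 and 0.192 CPM in p cells, a ratio of 599 to the level over the pooled p libraries (95% counting interval 205 to 2905, from 3 counts; adjusted p = 0.00644 by edgeR). With any of the 4 libraries left out, which leaves 1 library in a group, the call was lost, as were nearly all calls at this stage. The median log2 fold change between c and p cells of these paired-class genes was 9 at stage 3 (11 tested), -4.63 at stage 4 (8 tested) and 5.74 at early stage 5 (10 tested), and 5.89, -2.73 and 2.35 with genes at 0 counts in a group set to their bound, so that its sign differed between the stages. For the bHLH genes it was 0.40, 1.31 and 0.76, and for all genes 0.06, 0.07 and 0.18. Many of the paired-class genes passed the filter only through 1 library in which they were read. Nothing is therefore read from these medians. *g18397* had 0 counts in all stage-3 libraries, so that its course over the stages was opposite to that of *g16467* by these values.

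Of the 105 other homeobox genes, with medians between -0.34 and 0.15 over the 5 comparisons, 0 of 36 tested were called by edgeR at stage 3 (an unadjusted p under 0.05 for 2, and 6 called by DESeq2). At stage 4 edgeR called 2 of 34, against 0.486% of all genes. These were *g13867* and *g13868*, both annotated as Meis2, a partner of Hox proteins, and both lower in c cells. *g13867* had 68.6 and 93.8 CPM in c cells, against 469 and 481 CPM in p cells (a log2 fold change of -2.61 with adjusted p = 0.0258 by edgeR). Both calls were lost with any of the 4 libraries left out, which leaves 1 library in a group. Without either p library the calls of all other genes were lost too. At early stage 5, 4 of 47 were called, against 0.812% of all genes. *g15189*, annotated as MSH-D, of the muscle segment homeobox family, was higher in c cells, with 95.2 and 102 CPM, against 5.95 and 0.961 CPM in p cells (adjusted p = 0.0157 by edgeR). *g7954* (*Pt-lab1*), *g8250* (*Pt-BarH1*) and *g27748* (annotated as extradenticle) were lower in c cells, with log2 fold changes of -5.62, -6.84 and -1.82. With any of the 4 libraries left out, which leaves 1 library in a group, these 4 calls were lost too, as were nearly all calls at this stage. Between stages 4 and 3 in c cells 2 of 57 were called, against 3.81% of all genes, *g13867* higher at stage 4 (log2 fold change 4.39, adjusted p = 0.0325 by edgeR) and *g11268*, annotated as zinc finger homeobox protein 3, lower (log2 fold change -1.80, adjusted p = 0.00161 by edgeR). With each of the 16 libraries left out in turn, *g13867* kept its call in 8 fits and *g11268* in 14, lost without the first c library of either stage. Between early stage 5 and stage 4, 0 of 57 were called by edgeR (an unadjusted p under 0.05 for 1, and 1 called by DESeq2). *g11268* was the homeobox gene with the highest mean, with 184 to 1240 CPM over the 16 libraries, and was thus read in all regions.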

How the data were processed

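The authors trimmed the single-end reads of PCR-amplified SMARTer libraries, aligned them to Ptep_1.0 by BLAT, filtered the alignments for coverage, identity and uniqueness, and counted them on AUGUSTUS aug3.1 models with htseq-count, for which the submitters' notes and the paper give different versions (0.5.4p5 in the notes). The deposited count table holds raw counts. The second deposited table holds RPKM by the authors, used here for ratios between genes, ranks within a library, model lengths and 1 alternative. Of the counts, 5 rows without a gene, filled at early stage 5 only (8.18% to 8.85%), were left out. The 16 columns matched the labels.

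R 4.3.3 was used with edgeR 4.0.16 (non-legacy quasi-likelihood test, TMM), a filter that keeps a gene if 1 library of the fit reaches 1 CPM, Benjamini-Hochberg adjustment and a threshold of 0.05. C and p cells were fitted within a stage, and stages in 1 fit of 16 libraries. Nothing says that libraries of a group came from separate embryos, so that p-values measure the spread between these libraries. Folds against a group divide the mean of the libraries by the pooled level of that group where it holds few counts. Totals per library (4566853 to 10500376) set the precision. Alternatives were DESeq2 1.42.0, edgeR's likelihood ratio test, other scalings, filters and fits, the replicate number as a block, each library left out and the legacy test, which was added with the data in view.

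The 2 genes and all lists were chosen with earlier results of these data known. Lists were built from product names, with false matches by name removed. Named were both genes, the 5 nearest profiles of each, their neighbours, Group C, regional markers, and in each list the called and the highest members. Beyond this rule, *g14166*, *g4534*, the other genes with the same split and both Snail genes were named. The Snail genes were named because of their values.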

Additional observations from a re-analysis of the deposited data

How the results depend on the processing

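DESeq2's Wald test called *g14287* (log2 fold change 11.4) and *g16467* (9.56) higher in c than in p cells at stage 4 and *g16467* (8.33) at early stage 5, where edgeR's test did not. No other alternative called either gene, and the direction turned once: without the first stage-4 c library, *g14287* in c cells at early stage 5 against stage 4, given without a test, was at 0.81. Where 1 library was left in an arm, it was assumed to vary like the others. With each library left out, log2 fold changes of c against p cells were 7.54 to 12.8 for *g14287* and 8.05 to 11.7 for *g16467* at stage 4, 7.32 to 8.01 and 8.69 to 8.83 at early stage 5, and -4.51 to 0.81 and -2.62 to -1.63 between early stage 5 and stage 4 in c cells. In the same way the stage-4 mean was 0.849% to 34% of the stage-3 mean for *g14287* and 26.4% to 66.4% for *g16467*, and the early stage-5 mean was 1.01% to 2.75% and 6.05% to 14.3%. At library sizes without TMM the last value for *g16467* was 6.64%, and by RPKM 6.75%. Without TMM the median of all genes between stages 4 and 3 in c cells moved to -0.36 on the log2 scale, against -0.02 with it.

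The numbers of called genes, against which both genes were read, depended on the processing too. Those between stage-3 c and p cells (25) were 888 by DESeq2 (287 higher), 14 by the likelihood ratio test, 10 with at least 10 counts in 2 libraries, 59 in a fit of all 16 libraries and 4 to 32 with a library left out. At stage 4 (49) they were 278 by DESeq2, 28 by the likelihood ratio test and 0 to 45 with a library left out, with 0 without either p library. At early stage 5 (96) they were 411, 301, 145 with DESeq2's size factors, 331 by the legacy test (chosen after seeing the data), 32 in a fit of all 16 libraries and 0 to 1 with a library left out. Between stages 4 and 3 in c cells (515) they were 927, 72, 295 by the legacy test and 251 to 619. Between early stage 5 and stage 4 (50) they were 307, 27, 100 by the legacy test and 14 to 55. The causes were not tested.

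The labels do not say that replicate numbers pair the libraries, and the deviations of same-numbered c and p libraries had correlations of 0.00837 to 0.0363. With the replicate number as a block, the calls between c and p cells came to 0 for stage 3, 8 for stage 4 and 0 for early stage 5, and the adjusted p of *g14287* was 0.981 at stage 4 and 0.911 at early stage 5, by edgeR. Counts of 0 or 1 outside c cells, and 17 to 51 counts in c cells at early stage 5, limit how finely the last levels can be compared.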
